A study of Mus musculus with 16 samples.

Results

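The genes described here encode the machinery that G protein-coupled receptors act on: 12 G alpha subunits, 5 G beta subunits, 9 G gamma subunits, 9 adenylyl cyclases and 3 phospholipases C of the beta class. They were picked by name and found through the Ensembl identifiers of the count tables, with earlier results of these data known. All 38 were present among the 38924 gene rows, and all 38 passed the filter on low counts that left 18350 genes to test. Across the 4 groups of the study few of the 38 genes were called, as was the case over all genes tested. At an unadjusted edgeR p under 0.05 the share of the 38 was above that of all genes in 5 of 7 comparisons and below it in the others. The cyclase gene Adcy2 was higher in libraries labelled RGS4 KO than in wild-type (WT) libraries after CFA, by 1.15-fold, and the gamma subunit gene Gng12 was higher after CFA than in naive WT libraries, also by 1.15-fold. No other gene of the 38 was called in any of the 7 comparisons.

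A receptor in its active state loads a G alpha subunit with GTP, and the alpha subunit and the beta-gamma pair then act on separate effectors until the alpha subunit hydrolyses its GTP. Gs and Golf alpha subunits stimulate adenylyl cyclases, which make cyclic AMP, while Gi class subunits inhibit several of them. Gq class subunits, and for some isoforms beta-gamma, activate phospholipase C beta, which releases inositol trisphosphate (IP3) and diacylglycerol (DAG). RGS4, the gene product targeted in this series, is a GTPase-activating protein for Gi/o and Gq class alpha subunits, so several of these genes encode its direct substrates. In thalamic relay neurons the isoform PLC beta 4 is known as a main partner of metabotropic glutamate receptors.

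All 16 libraries were made from mouse brain, and their labels place the punches in the ventral posterolateral nuclei of the thalamus, with 4 libraries each of WT naive (numbered 1 to 4), naive labelled KO (5 to 8), WT CFA (9 to 12) and CFA labelled KO (13 to 16). The labels give the genotype only as WT or RGS4 KO and the treatment only as naive or CFA, an abbreviation often used for complete Freund's adjuvant, an inflammatory agent. The series text speaks of a mouse line with a floxed Rgs4 gene and an adeno-associated virus carrying Cre, which acts only in the cells the virus reaches. Ages are not given, sex is labelled female while the protocol text names male animals, and each library pooled tissue from 2 mice. In bulk punches, a change in the number of cells of a type and a change in RNA per cell cannot be told apart.

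Library totals ran from 18.1 to 78.8 M counts with a median of 42.6 M. Rgs4 itself did not separate the genotypes. It averaged 80.9 ± 3.66 CPM (counts per M of the scaled library total; SD, n = 4) in WT naive and 81.3 ± 2.74 CPM (n = 4) in naive labelled KO libraries (exact two-sided permutation p = 0.886). After CFA it averaged 89.3 ± 6.66 CPM (n = 4) in WT and 84.1 ± 5.5 CPM (n = 4) in labelled KO libraries (exact two-sided permutation p = 0.229). The deposited counts are per whole gene, so they do not resolve a deleted exon, and directions below refer to the libraries as labelled. Among the 12 listed markers of relay neurons, the highest was Slc17a6 at 431.6 to 535.1 CPM and the lowest Gbx2 at no more than 0.242 CPM. Between them lay Tcf7l2 at 109.5 to 179.1 CPM, and low ones such as Lef1 (7.27 to 15.8 CPM) and Prkcd (9.82 to 17.98 CPM). The inhibitory markers Gad1 and Gad2 reached 545.8 and 616.4 CPM. The marker list with the most calls for CFA in WT libraries was that of oculomotor and Edinger-Westphal neurons, a midbrain group outside the labelled region. Of its 10 genes 9 were tested, 5 had a median under 1 CPM (Phox2a was at most 0.0865 CPM), and its summed level was 34.1 to 71.2 CPM in WT naive, 45.5 to 299.6 in naive labelled KO, 297.0 to 437.3 in WT CFA and 78.9 to 223.3 CPM in CFA labelled KO libraries.

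The promoters of the 2 called genes are shown here because the calls below concern these genes. RefSeq promoter sequences on GRCm38.p6 (the build named mm10), from 250 bases before to 50 bases after a start site, were found for 30 of the 38 genes. Adcy2 (ENSMUSG00000021536.7, 25 merged exons) lies at chr13:68620043-68999541 on the minus strand, and its promoter spans chr13:68999492-68999791. Gng12 (ENSMUSG00000036402.7, 7 merged exons) lies at chr6:66896397-67021350 on the plus strand, and the first of its listed promoters spans chr6:66896147-66896446. Both are written 5′ to 3′ along the gene's strand, with GC boxes (GGGCGG or its reverse complement CCGCCC) in capitals.
Adcy2: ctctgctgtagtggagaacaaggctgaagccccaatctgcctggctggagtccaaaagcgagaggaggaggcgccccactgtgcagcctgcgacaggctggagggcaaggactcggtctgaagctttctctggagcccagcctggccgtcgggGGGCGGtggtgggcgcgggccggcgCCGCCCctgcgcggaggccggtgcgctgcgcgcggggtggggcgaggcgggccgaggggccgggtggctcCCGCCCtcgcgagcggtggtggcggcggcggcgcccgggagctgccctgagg
Gng12: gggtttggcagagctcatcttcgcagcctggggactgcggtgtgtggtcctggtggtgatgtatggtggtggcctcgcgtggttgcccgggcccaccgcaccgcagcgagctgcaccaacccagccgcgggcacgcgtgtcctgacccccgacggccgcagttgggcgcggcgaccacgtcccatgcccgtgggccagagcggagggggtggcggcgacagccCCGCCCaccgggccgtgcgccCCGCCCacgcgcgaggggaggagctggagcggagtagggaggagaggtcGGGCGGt
Each of these stretches holds 3 GC boxes, no TATAAA or its reverse complement, and no CGTCA or TGACG, the core of the cyclic AMP response element. Their GC content was 75.0% and 74.0%. The second listed promoter of Gng12, at chr6:66896641-66896940, holds 0 GC boxes and is not shown. Over the 41 promoters of the 30 genes, 25 (61.0%) held a GC box on either strand, against 35.7% of the 32851 promoters in the table. The core was found in 24.4% against 20.8% and TATAAA in 9.76% against 13.6%. The full element TGACGTCA, which contains the core on each strand, was found in 0 of the 41, against 1.79% of all promoters. Median GC content was 65.7% in the 41 promoters and 52.7% in all, and 73.2% of the 41 had a ratio of observed to expected CpG above 0.6, against 35.8%. These matches describe letters within 300 bases and were not tested as sites.

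Levels were compared between genes only per length, as RPKM, the CPM value divided by the merged exon length in kilobases. Summed over its members, each family stood at a steady level, with 326.6 ± 4.66 RPKM for G alpha (SD over 16 libraries), 195.1 ± 4.05 for G beta, 207.4 ± 7.3 for G gamma and 122.2 ± 2.72 for the cyclases, while phospholipase C beta summed to 34.8 ± 1.15 RPKM. Within each family a few genes made up most of the sum. Gnai1, Gnai2 and Gnao1, all Gi/o class, held 17.7%, 15.7% and 14.9% of the G alpha sum, followed by Gnaq with 11.3% and Gna12 with 8.69%. Gnb1 held 65.6% of G beta and Gnb2 22.3%. Gnb5, the beta subunit that pairs with R7 class RGS proteins, held 10.8%. Gng3 and Gng2 held 40.6% and 25.2% of G gamma, and Gng12 held 5.61%. Among the cyclases Adcy2 (24.0%) and Adcy5 (22.7%) were close, and Adcy1 had 11.4%. Plcb4 held 64.6% of the phospholipase C beta sum, Plcb1 26.0% and Plcb3 9.37%.

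**Figure D1:**
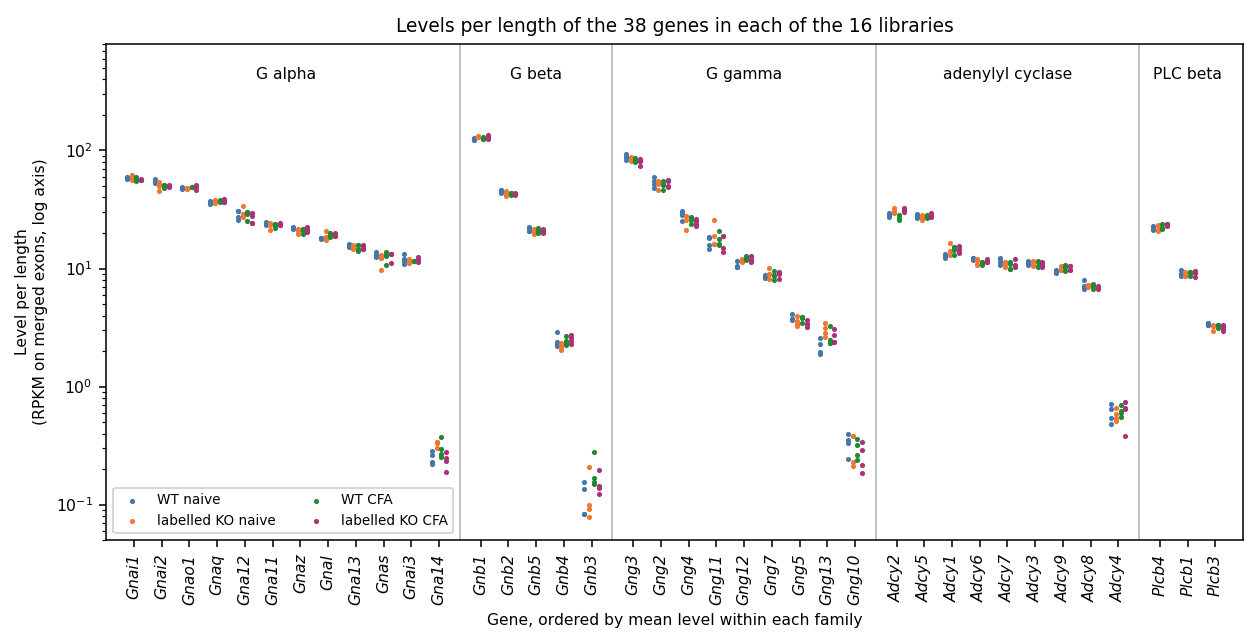
Level per length (RPKM on merged exons, log axis) of the 38 genes, 1 point per library, coloured by group and ordered by mean within each family. The 4 groups overlay each other for nearly every gene, and Gna14, Gnb3, Gng10 and Adcy4 lie far below the rest of their families.

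The lowest members were Gna14 with 0.09% of the G alpha sum, Gnb3 with 0.07% of G beta, Gng10 with 0.14% of G gamma and Adcy4 with 0.49% of the cyclases. Gnb3 (6 to 31 counts per library) and Gng10 (6 to 30) were the least counted. The choice of length set some of the order. With the longest transcript in place of merged exons, Gnao1 led the G alpha genes with 21.0% and Gnas, the Gs alpha gene, went from 3.84% to 7.69%. Counts for Gnas are uncertain, because 2457 of its exon bases are overlapped by Nespas and Gm20721 on the other strand and the library kit does not mark strand. The same holds for Gng13, where 399 exon bases are shared with Chtf18. Gng10 is uncertain because 946 of its 1314 exon bases are shared with Gm20503 on the same strand. The members at 10 CPM or more, 33 in all, varied little between libraries. Their median coefficient of variation over all 16 libraries was 4.63%, beside 4.84% for the 10410 tested genes at that level.

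A gene is called here at an adjusted p under 0.05. Over the whole set, calls were 0 of 38 for genotype in naive libraries (1.45% of all genes called), 1 after CFA (1.6%), 1 for CFA in WT (2.23%), 0 for CFA in labelled KO libraries (0.185%), 0 for the interaction (0.0654%), 1 for the genotype average (3.73%) and 0 for the CFA average (1.81%). At an unadjusted p under 0.05 the edgeR counts in that order were 9, 2, 11, 4, 7, 5 and 7 of 38, or 23.7%, 5.26%, 28.9%, 10.5%, 18.4%, 13.2% and 18.4%. Over all genes the shares were 13.8%, 12.3%, 17.6%, 7.81%, 9.86%, 14.3% and 14.6%, so that the members were above the background in 5 comparisons and below it in the genotype comparison after CFA and in the genotype average. DESeq2 called 0, 1, 4, 0, 0, 2 and 1 of 38, where it called 2.34%, 2.12%, 5.15%, 0.41%, 0.429%, 3.93% and 3.68% of the genes to which it gave an adjusted p. Groups did not overlap for 5 of 38 genes for genotype in naive libraries (7.23% of all genes), 1 after CFA (8.03%), 5 for CFA in WT (11.3%) and 1 for CFA in labelled KO libraries (4.29%). The median log2 change of the 38 was between -0.04 and 0.00 in these 4 comparisons, beside 0.00 for all genes in each. The median absolute log2 change was 0.07, 0.03, 0.06 and 0.04, beside 0.07, 0.06, 0.07 and 0.06 over all genes.

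The 95% intervals give the range of folds that the 16 libraries leave possible for each gene. Limits of 0.8 to 1.25 were set for description. They also hold the intervals of Adcy2 and Gng12 in the comparisons that called them, so an interval inside them does not show that a gene was unchanged. The share of all genes inside these limits was not counted. In these 4 comparisons the 95% interval of the fold lay inside 0.8 to 1.25 for 29, 33, 31 and 30 of the 38 genes. Of the members under 10 CPM, Gna14, Gnb3, Gng10, Gng13 and Adcy4, each left those limits in at least 5 of the 7 comparisons. Among the 33 members at 10 CPM or more, those outside were Gnas, Gnb4, Gng4 and Gng11 for naive genotype, Gng11 for genotype after CFA, Gng11 and Adcy1 for CFA in WT, and Gna12, Gnb4 and Gng11 for CFA in labelled KO libraries.

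**Figure D2:**
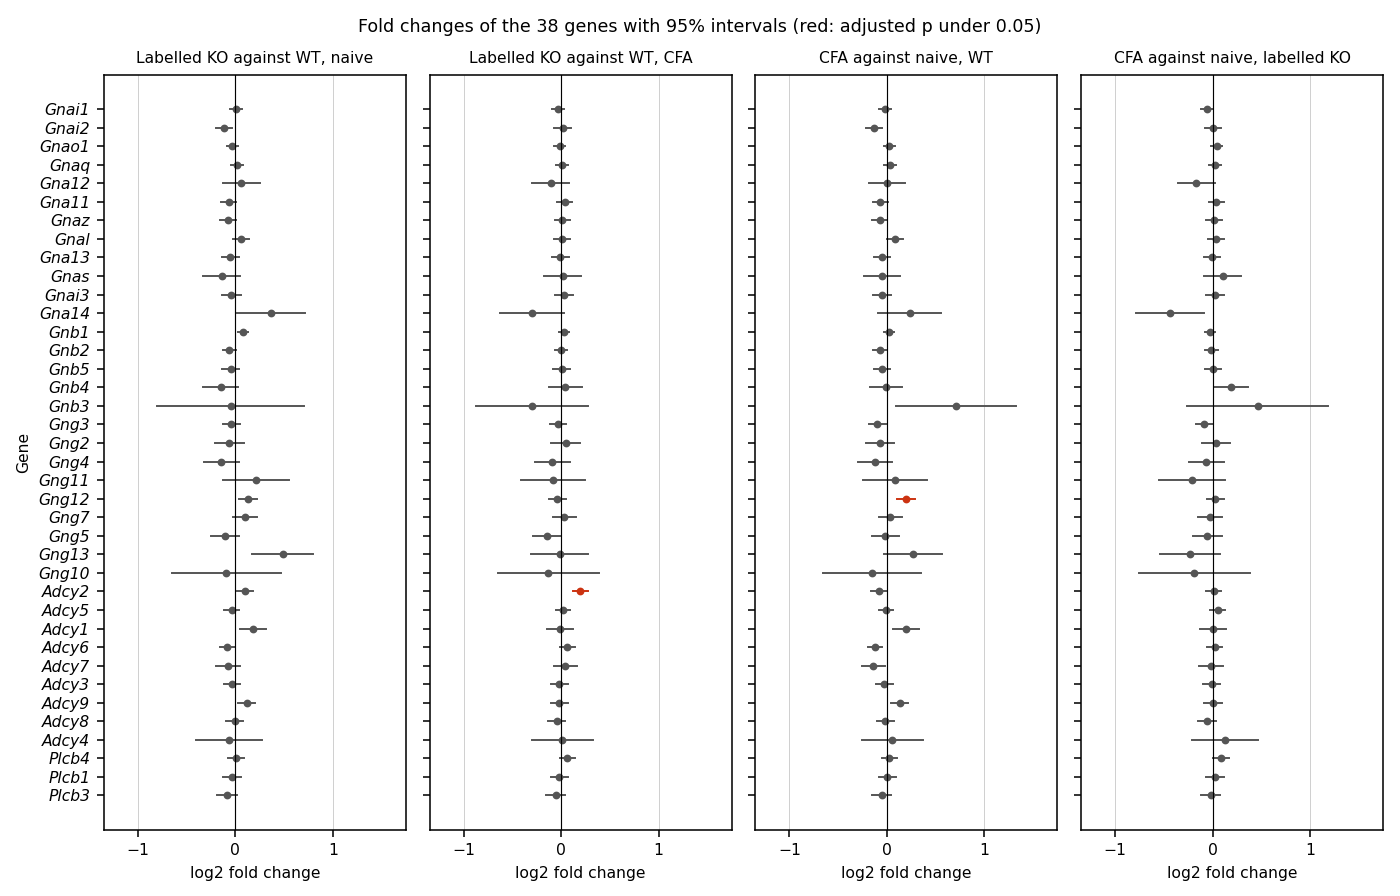
Log2 fold change (horizontal axis) of each of the 38 genes with its 95% interval in 4 pairwise comparisons, with called genes in red. Adcy2 after CFA and Gng12 in WT libraries are the called genes, and the widest intervals belong to Gnb3 and Gng10.

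Among Gi/o class alpha subunits, 0 of 5 genes were called in any comparison. In the 4 pairwise comparisons their log2 changes lay between -0.13 and 0.04, and every 95% interval of the fold lay between 0.862 and 1.09. Gnao1, the major G alpha of brain, was between 512.7 and 560.1 CPM in all libraries, and Gnai1 between 174.4 and 194.2. Gnai2 varied most. It was 214.9, 205.8, 200.6 and 204.6 CPM in WT naive libraries and 191.9, 182.2, 192.1 and 187.7 in WT CFA libraries, with no overlap between these groups. Its log2 change of -0.13 (SE 0.04) had an adjusted p of 0.0892. Gnai2 was called in 3 of 22 alternatives for that comparison (DESeq2, a fit of the 2 groups alone, and without naive labelled KO library 8), with adjusted p from 0.0215 to 0.9999 over all alternatives. Gnaz, which resists pertussis toxin, and Gnai3 were not called in any comparison.

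Gq class subunits, which switch on phospholipase C beta, were likewise uncalled, 0 of 3 in each comparison. Gnaq stayed between 216.8 and 240.0 CPM in all 16 libraries and Gna11 between 86.8 and 101.6. Gna14 was the member with the lowest p both in the comparison of CFA with naive among labelled KO libraries and in the interaction, at a level near 1 CPM and with 16 to 63 counts per library. Its values were 0.766, 0.974, 0.908 and 0.788 CPM in WT naive, 1.03, 1.17, 1.16 and 1.15 in naive labelled KO, 1.29, 0.922, 0.876 and 1.01 in WT CFA, and 0.801, 0.955, 0.652 and 0.852 CPM in CFA labelled KO libraries. The naive labelled KO libraries lay above both WT naive and CFA labelled KO libraries without overlap. The log2 change after CFA in labelled KO libraries was -0.43 (SE 0.17, adjusted p = 0.495), and the interaction was -0.67 (SE 0.23, adjusted p = 0.330). Neither was called.

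The Gs class gene Gnas and its relative Gnal, which encodes Golf, gave 0 calls of 2, and so did Gna12 and Gna13 of the G12 class. Gnal was 199.7 to 204.4 CPM in WT naive and 206.6 to 221.4 CPM in WT CFA libraries, without overlap, with an adjusted p of 0.267. Gnas had wider intervals than most genes of its level. The fold between labelled KO and WT naive libraries was 0.908 with a 95% interval of 0.796 to 1.04. Gna12 after CFA in labelled KO libraries had a fold of 0.891 with an interval of 0.782 to 1.02.

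Of the 5 beta subunit genes none was called. Gnb1, the most abundant, was the member with the second lowest p for genotype in naive libraries and in the average. It was 540.6, 534.3, 527.8 and 527.2 CPM in WT naive and 557.8, 570.6, 558.8 and 557.9 CPM in naive labelled KO libraries, which did not overlap. The fold was 1.05 with a 95% interval of 1.02 to 1.09 (log2 change 0.08, SE 0.03, adjusted p = 0.169). After CFA the same comparison overlapped, with 531.6 to 550.1 CPM in WT and 538.7 to 572.5 CPM in labelled KO libraries. Gnb2 and Gnb5 had fold intervals inside 0.8 to 1.25 in all 4 pairwise comparisons. Gnb2 was nonetheless 149.8 to 156.6 CPM in WT naive and 142.7 to 148.7 CPM in WT CFA libraries, without overlap. Gnb3 had a log2 change of 0.71 after CFA in WT libraries (SE 0.30, adjusted p = 0.205) at 0.217 to 0.729 CPM, a level at which a library holds few reads.

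Gng12, a gamma subunit known as a substrate of protein kinase C, was the single member called for CFA in WT libraries. It was 54.9, 48.5, 49.1 and 49.5 CPM in WT naive libraries and 57.8, 56.2, 60.9 and 56.4 CPM in WT CFA libraries. The groups did not overlap, and WT naive library 1 stood above the other three of its group. The log2 change was 0.20 (SE 0.04), a fold of 1.15 with a 95% interval of 1.08 to 1.22 and an adjusted p of 0.0176 (exact two-sided permutation p = 0.0286, the smallest that 4 against 4 allows). Among all tested genes 2.23% were called in this comparison, so 1 of 38 is near the background. The libraries labelled KO were at 56.0, 56.8, 53.3 and 54.4 CPM when naive and 54.2, 54.6, 60.1 and 56.7 CPM after CFA, a log2 change of 0.03 (SE 0.04, adjusted p = 0.930). The interaction, which tests whether the CFA difference was unequal between genotypes, was -0.17 (SE 0.06, adjusted p = 0.365), so the difference between the genotypes was not called.

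Some marker lists differed between the same groups as Gng12. The mean z-score of the oculomotor and Edinger-Westphal genes was -1.08 to -0.69 in WT naive and 0.67 to 1.74 in WT CFA libraries, and 6 of its 9 tested genes were called higher in that comparison. The score of the list of inhibitory neurons was -0.77 to 0.16 in WT naive and 0.20 to 0.89 in WT CFA libraries, with 0 of 7 genes called. Of the 11 tested relay neuron genes 2 were called higher, but the scores overlapped (-0.90 to -0.14 and -0.18 to 0.84). The oligodendrocyte scores overlapped too (-1.25 to 0.22 and -0.29 to 0.76), with 0 of 7 genes called. With the scores of the oculomotor, relay neuron and oligodendrocyte lists together as covariates, the log2 change of Gng12 was 0.04 (adjusted p = 0.9999), and 0 of the 18350 genes were called. No list was fitted alone, and the part of each in the result was not tested. The call was made in 17 of 22 alternatives, with adjusted p from 0.00198 to 0.9999. It was lost without WT naive library 2 (0.0670), WT naive library 3 (0.0642) or WT CFA library 11 (0.0700), and with all libraries thinned to the depth of the shallowest (0.0731).

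The other gamma genes gave no call. Gng13, known from taste and olfactory signalling, had the lowest p of the members for genotype in naive libraries. It was 1.5, 1.79, 1.45 and 2.01 CPM in WT naive and 2.69, 2.21, 2.43 and 2.02 CPM in naive labelled KO libraries, so that the groups met at their edges without overlap. The fold was 1.40 with a 95% interval of 1.13 to 1.74 (log2 change 0.49, SE 0.15, adjusted p = 0.123). After CFA the libraries of both genotypes lay between 1.82 and 2.53 CPM, and the log2 change was -0.01. Gng3, the most abundant gamma gene and one expressed mainly in neurons, was 137.7 to 154.3 CPM in WT naive, 134.0 to 145.7 in naive labelled KO, 131.6 to 141.1 in WT CFA and 122.2 to 140.4 CPM in CFA labelled KO libraries. Averaged over genotypes its log2 change with CFA was -0.09 (SE 0.03, adjusted p = 0.119). Gng5 was lower by the estimate in labelled KO libraries after CFA (log2 change -0.15, SE 0.07, adjusted p = 0.382). Gng11 was the most variable gamma gene above 10 CPM, from 12.8 to 23.9 CPM. Its highest value was that of naive labelled KO library 8, and the next was 19.2 CPM in WT CFA library 11. The same library 8 had the lowest Gnai2 (172.2 CPM), Gnas (109.6) and Gng4 (71.0) and the highest Gnal (232.0) and Adcy1 (204.3) of all libraries.

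Adcy2 encodes a cyclase that beta-gamma subunits stimulate when Gs alpha is also active, and it was the single member called for genotype. Its values were 115.3, 124.6, 119.8 and 122.7 CPM in WT naive libraries and 125.3, 129.5, 125.8 and 136.7 CPM in naive labelled KO libraries. After CFA they were 110.3, 116.5, 118.9 and 109.5 CPM in WT and 136.8, 125.7, 130.8 and 128.2 CPM in labelled KO libraries. In each treatment all 4 libraries labelled KO lay above all 4 WT libraries (exact two-sided permutation p = 0.0286 for both). After CFA the log2 change was 0.20 (SE 0.04), a fold of 1.15 with a 95% interval of 1.09 to 1.21 and an adjusted p of 0.00631. In naive libraries it was 0.10 (SE 0.04), a fold of 1.07 with an interval of 1.02 to 1.13, and an adjusted p of 0.222. The interaction was 0.10 (SE 0.05, adjusted p = 0.569), so no difference between these 2 effects was called. Averaged over treatments the log2 change was 0.15 (SE 0.03), a fold of 1.11 (1.07 to 1.15) with an adjusted p of 0.00197. Among all genes 1.6% were called for genotype after CFA and 3.73% in the average, which puts 1 of 38 near the background in both.

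The average for Adcy2 was called in 21 of 21 alternatives, with adjusted p from 3.4e-05 to 0.00653. The comparison after CFA was called in 21 of 22, with adjusted p from 0.000237 to 0.159. It was lost with the 3 marker scores as covariates, where the log2 change was 0.24. In that fit 0.387% of all genes were called after CFA, against 1.6% without the scores. The score of the midbrain list also separated the genotypes after CFA, at 0.67 to 1.74 in WT and -0.46 to 0.40 in labelled KO libraries. However, 0 of its 9 tested genes were called in that comparison. In naive libraries the scores overlapped (-1.08 to -0.69 and -1.13 to 0.95). After CFA the astrocyte scores overlapped narrowly (-0.01 to 0.54 in WT and -1.06 to 0.03 in labelled KO libraries), with 1 of 6 genes called lower. Those of inhibitory neurons did too (0.20 to 0.89 and -1.26 to 0.22), with 0 of 7 called. Neither list was among the covariates, and their part in the Adcy2 difference was not tested. The log2 change of Adcy2 with CFA was -0.08 in WT (SE 0.04, adjusted p = 0.249) and 0.01 in labelled KO libraries (SE 0.04, adjusted p = 0.980), neither of them called.

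**Figure D3:**
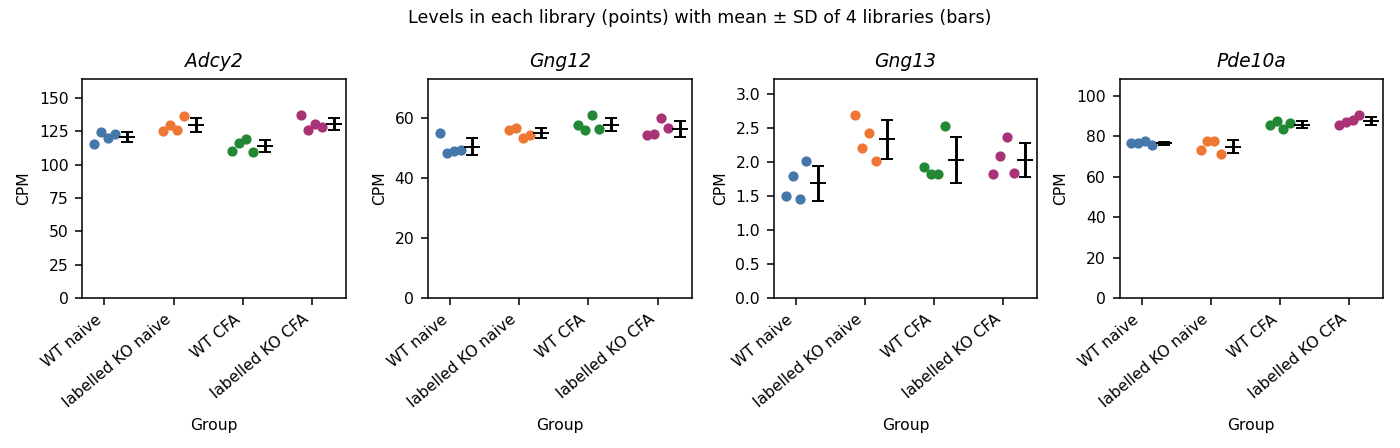
Levels in CPM (vertical axis, from 0) of Adcy2, Gng12, Gng13 and Pde10a in each library (points) of the 4 groups, with mean and SD of 4 libraries beside them. Adcy2 is higher in labelled KO groups, Gng12 has its lowest mean in WT naive libraries, and Pde10a is higher in both CFA groups.

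The remaining 8 cyclase genes were not called. Adcy1, stimulated by calcium and calmodulin and known from thalamus and cortex, was 152.8, 159.6, 156.2 and 166.6 CPM in WT naive and 164.3, 191.2, 192.0 and 180.0 CPM in WT CFA libraries. The groups overlapped by the lowest CFA library, and the fold was 1.15 with a 95% interval of 1.04 to 1.26 (log2 change 0.20, SE 0.06, adjusted p = 0.116). Adcy6, which calcium inhibits, was 81.4, 80.0, 82.9 and 82.7 CPM in WT naive and 77.5, 76.5, 72.5 and 74.1 CPM in WT CFA libraries, without overlap (log2 change -0.12, SE 0.04, adjusted p = 0.0843). In labelled KO libraries Adcy6 was 80.7, 74.7, 81.4 and 72.0 CPM when naive and 76.7, 77.8, 77.6 and 81.5 CPM after CFA. Its interaction was 0.14 (SE 0.05, adjusted p = 0.363). Adcy1 and Adcy6 were each called for CFA in WT libraries in 3 of 22 alternatives, the same ones that called Gnai2. Adcy9 was 47.7 to 50.2 CPM in WT naive and 50.6 to 54.7 CPM in naive labelled KO libraries, without overlap (log2 change 0.12, adjusted p = 0.218). Adcy5, the second cyclase by level and likewise inhibited by calcium, stayed between 184.1 and 210.5 CPM and its fold intervals lay inside 0.8 to 1.25 throughout the pairwise comparisons.

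The 3 phospholipase C beta genes gave no call. Plcb4 was 198.7, 205.4, 191.7 and 194.9 CPM in WT naive, 205.0, 188.1, 189.3 and 210.1 in naive labelled KO, 194.9, 214.7, 198.2 and 197.0 in WT CFA, and 205.3, 209.3, 214.4 and 212.7 CPM in CFA labelled KO libraries. The groups overlapped in every comparison. Its largest log2 change was 0.09 after CFA in labelled KO libraries (SE 0.04, adjusted p = 0.605), a fold of 1.06 with an interval of 1.003 to 1.12. Plcb1 ranged from 93.6 to 108.9 CPM and Plcb3, the isoform most sensitive to beta-gamma, from 20.6 to 24.3 CPM over all libraries.

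Further genes of the same pathways were followed as a list, of which 54 were tested. None of the 6 protein kinase A subunits, 2 Epac exchange factors, 3 CREB family genes, 4 GIRK potassium channel subunits or 7 receptor kinases and arrestins was called in any comparison. The log2 changes of the protein kinase A genes lay between -0.06 and 0.08 throughout. Calls in any of the 7 comparisons numbered 1 of 9 phosphodiesterases and 1 of 7 chaperones and exchange factors. In the IP3 and DAG arm they numbered 3 of 13 genes. No share of all genes called in any of the 7 was counted. By comparison, in the order used for the members, 0, 1, 2, 1, 0, 1 and 2 of the 54 were called. Over all genes the shares were 1.45%, 1.6%, 2.23%, 0.185%, 0.0654%, 3.73% and 1.81%. The most were 2 of 54 (3.70%), for CFA in WT libraries and in the CFA average.

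Pde10a, a phosphodiesterase that breaks down cyclic AMP and cyclic GMP and is known from striatal neurons, was called higher after CFA in both genotypes. It was 76.7, 76.6, 77.5 and 75.8 CPM in WT naive and 85.5, 87.4, 83.6 and 86.5 CPM in WT CFA libraries. In libraries labelled KO it was 73.2, 77.5, 77.7 and 71.1 CPM when naive and 85.7, 87.0, 88.1 and 90.4 CPM after CFA. All 8 CFA libraries lay above all 8 naive libraries. The log2 change was 0.16 (SE 0.03, adjusted p = 0.00959) in WT and 0.23 (SE 0.03, adjusted p = 0.00142) in labelled KO libraries, and the average was a fold of 1.15 (1.11 to 1.18, adjusted p = 6e-05). With the 3 marker scores as covariates the calls in WT and in the average were lost, and that in labelled KO libraries was made. Over all genes, 0%, 0.0545% and 0.436% were called in these 3 comparisons of that fit. Pde10a is also in the list of striatal markers, whose score overlapped between naive and CFA groups (-0.38 to 0.47 against -0.16 to 0.06 in WT, and -1.51 to 0.59 against -0.11 to 0.68 in labelled KO libraries).

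In the IP3 and DAG arm, Dgkg, a kinase that turns DAG into phosphatidic acid, was 35.3, 34.0, 35.1 and 33.8 CPM in WT naive and 37.5, 41.4, 37.2 and 38.3 CPM in WT CFA libraries, without overlap (log2 change 0.16, SE 0.04, adjusted p = 0.0355). This call was made in 15 of 22 alternatives, and it was lost without WT naive library 2, 3 or 4 or WT CFA library 10 or 12, on thinned counts and with the marker scores. Prkcd, a DAG-activated protein kinase C that is also in the list of relay neuron markers, was higher in the CFA average (log2 change 0.28, SE 0.06, adjusted p = 0.0255), with 9.82 to 13.9 CPM in the 8 naive and 13.3 to 17.98 CPM in the 8 CFA libraries, which overlap. It was called in 18 of 21 alternatives and lost without naive labelled KO library 6, without CFA labelled KO library 16 and with the marker scores, which include Prkcd. The chaperone gene Pdcl, whose product helps assemble beta-gamma pairs, was 27.9, 27.7, 28.8 and 27.0 CPM in WT CFA and 25.1, 24.4, 22.9 and 25.0 CPM in CFA labelled KO libraries. Its log2 change was -0.19 (SE 0.04, adjusted p = 0.0294), called in 14 of 22 alternatives. The call was lost without WT CFA library 9, 10 or 11 or CFA labelled KO library 14, 15 or 16. It was also lost on thinned counts and with the marker scores. With those scores 0% of all genes were called for CFA in WT, 0.0545% in the CFA average and 0.387% for genotype after CFA.

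Itpr2, an IP3 receptor known from astrocytes, was called higher in the genotype average. It was 44.6, 42.8, 44.9 and 45.7 CPM in WT naive, 50.8, 46.0, 51.0 and 51.2 in naive labelled KO, 45.6, 44.8, 50.3 and 46.6 in WT CFA, and 50.3, 50.1, 50.6 and 50.1 CPM in CFA labelled KO libraries. The labelled KO libraries were higher without overlap when naive, while after CFA WT library 11 lay among them. The fold was 1.10 with a 95% interval of 1.05 to 1.14 (log2 change 0.13, SE 0.03, adjusted p = 0.00933), called in 21 of 21 alternatives. In that average 0 of 6 astrocyte markers were called higher and 1 lower, with a median log2 change of -0.07. Of the families' own genes outside the 38, 8 were tested, all at a mean of 3.56 CPM or less. Gng8, a gamma subunit known from the habenula, was higher in the genotype average by 1.43-fold (1.17 to 1.76, log2 change 0.52, SE 0.14, adjusted p = 0.0444) at a mean of 1.14 CPM. Gnat3 and Gngt1 were too low to test.

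The position of the genotype calls was described by counting, within 2.5 Mb to each side, how many tested neighbours were also called in the genotype average, for which the background is 3.73%. Around Adcy2 there were 8 of 46 (17.4%), the highest share of the 38 members, whose median was 2.07% and of which 13 had none. The called neighbours differed in direction. Gm9625 had a log2 change of 2.72 (adjusted p = 8e-14), while Mtrr, 0.417 Mb away, had -0.37 (adjusted p = 0.000230). Around Itpr2 the count was 14 of 42 (33.3%) and around Gng8 26 of 71 (36.6%), again in both directions. Around Gng12 it was 0 of 14 and around Pdcl 0 of 44. Whether position has a part in the Adcy2, Itpr2 and Gng8 differences was not tested. Of the members themselves, Plcb1 and Plcb4 lie 184 kb apart on chromosome 2, Gnaq and Gna14 48.3 kb apart on chromosome 19, and Gng7 and Gna11 514 kb apart on chromosome 10.

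**Figure D4:**
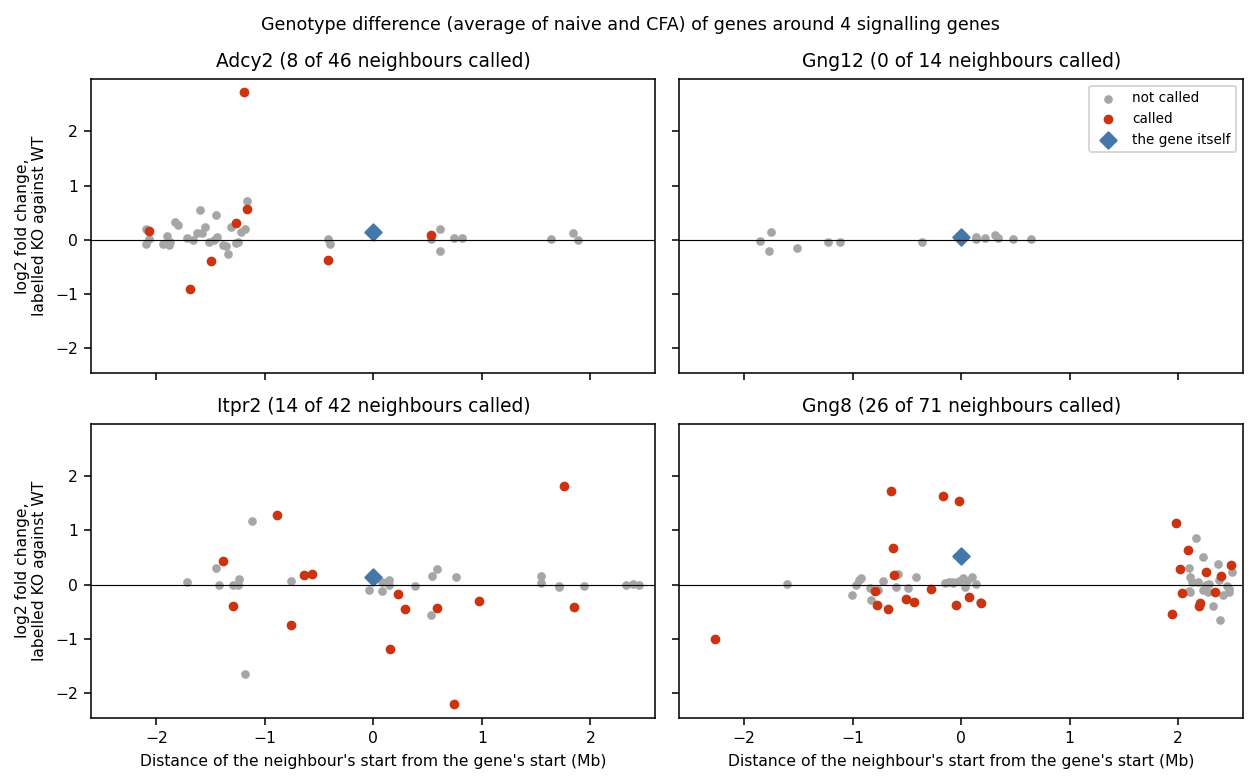
Log2 fold change of labelled KO against WT libraries, averaged over treatments (vertical axis), of tested genes by distance in Mb (horizontal axis) from Adcy2, Gng12, Itpr2 and Gng8, with called genes in red and the gene itself as a diamond. Called neighbours number 8 of 46, 0 of 14, 14 of 42 and 26 of 71 and lie on both sides of 0.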

How the data were processed

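The measurements are mRNA read counts from 16 pooled punch samples. The tables deposited by the authors hold raw counts, as whole numbers per Ensembl identifier. Per the labels' protocols, a TruSeq version 2 kit was used, which keeps no strand. The submitters' processing notes name TopHat, DESeq2 and mm10. No source used here names the counter, the annotation release or the strand setting. Summary lines for unassigned reads (38.0% to 39.9%) were left out. Symbols, positions and exon lengths came from a GENCODE annotation of mm10, which matched 37607 of 38924 identifiers.

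Counts were fitted with edgeR 4.0.16 in R 4.3.3 (filterByExpr at a minimum count of 10, TMM, robust quasi-likelihood, 1 mean per group over all 16 libraries). The biological coefficient of variation was 6.1% in common. The 7 comparisons were the genotypes within each treatment, the treatments within each genotype, the interaction and an average of each factor. Two-sided p-values were adjusted over 18350 genes (Benjamini-Hochberg), a gene is called at an adjusted p under 0.05, and every adjusted p is from edgeR unless named otherwise. Changes are labelled KO minus WT or CFA minus naive. Levels are CPM on TMM-scaled totals. The code was tested on simulated counts. Replicates differed by more than sampling noise (chi-square per degree of freedom 3.55 to 13.7), and no label says whether pools came from separate batches.

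Genes given in full are those called, or otherwise the 2 with the lowest p in a comparison, and the highest and lowest of each family by level. Members named for a range, a wide interval or a lack of overlap were chosen after their values were seen. The members, lists and tests were chosen with earlier results of these data known. Alternatives were RLE factors, DESeq2 1.42.0, no filter, the compared groups alone, thinned counts, 3 marker scores as covariates, and leaving out each library.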

Additional observations from a re-analysis of the deposited data

Results flagged for a closer look

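In 9 of the 152 sets of 4 libraries examined (38 genes in 4 groups) the highest or lowest library stood apart from the other three by Dixon's criterion, in which the gap to the nearest library is set against the range of the group. Chance alone gives about 1 in 20 such sets. In naive labelled KO libraries, Gna14 in library 5 was low at 1.03 CPM against 1.15 to 1.17, Gnb1 in library 6 was high at 570.6 CPM against 557.8 to 558.8, and Gnb3 in library 7 was high at 0.552 CPM against 0.207 to 0.259. In WT CFA libraries, Gnb3 in library 9 was high at 0.729 CPM against 0.391 to 0.442, Gng5 in library 10 was low at 9.52 CPM against 10.6 to 10.8, Gng13 in library 12 was high at 2.53 CPM against 1.82 to 1.93, and Plcb4 in library 10 was high at 214.7 CPM against 194.9 to 198.2. In CFA labelled KO libraries, Gnas in library 14 was low at 125.2 CPM against 147.2 to 148.2. In WT naive libraries, Gng12 in library 1 was high at 54.9 CPM against 48.5 to 49.5. Without that library the log2 change of Gng12 for genotype in naive libraries was 0.17 with an adjusted p of 0.0485, where it was 0.13 with an adjusted p of 0.170 in all libraries.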

How the results depend on the processing

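Among members called in any fit, no change of sign occurred in any alternative. Leaving out 1 library at a time gave 0 to 1 members called for genotype in naive libraries, 1 for genotype after CFA and in the genotype average, 0 to 4 for CFA in WT, 0 to 2 for the CFA average, and 0 for CFA in labelled KO libraries and the interaction. The calls added without naive labelled KO library 8 were Gnai2, Adcy1 and Adcy6 for CFA in WT and Gnai2 and Gnal (adjusted p = 0.0439 and 0.0442) for the CFA average. Gnai2 was called for genotype in naive libraries without library 7 (adjusted p = 0.0489), and Gng12 for the CFA average without WT naive library 1 (0.0165). DESeq2 called 4 members for CFA in WT, 2 for the genotype average (Adcy2 and Gnb1, adjusted p of 0.0398 for Gnb1) and 1 for the CFA average (Gng12), and no filter also gave 1 for the CFA average. The fit of the compared groups alone called 4 for CFA in WT. Over all genes the share called for CFA in WT was 2.23% with all libraries, where 1 of 38 members was called. It was 3.37% with the compared groups alone, 4.08% without naive labelled KO library 8 and 5.15% with DESeq2, and in each of these fits 4 of 38 members were called. Thinning called 0 for CFA in WT, where 1.51% of all genes were called. The marker scores called 0 for CFA in WT and 0 for genotype after CFA, where 0% and 0.387% of all genes were called. The cause of these shifts was not tested. With the longest transcript as length, the shares were 12.5% for Gnai1, 60.0% for Gnb1, 38.4% for Gng3, 22.7% for Adcy2 and 67.1% for Plcb4. Of the further pathway genes DESeq2 called 1 (Itpr2) for genotype in naive libraries, 4 for CFA in WT and 2 for CFA in labelled KO libraries, where edgeR called 0, 2 and 1. Over all genes, DESeq2 called 764 for CFA in WT and 86 for the interaction against 409 and 12 with edgeR. No paired analysis was possible because the library numbers run through the series and no number is shared between groups. Gnb3 and Gng10, with 6 to 31 counts per library, had the widest fold intervals of the members.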
